A study of Mus musculus with 6 samples.

Results

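Frozen mouse brain nuclei in 16 wells of the bulk SCRB-seq table were compared by the number of nuclei that each well held. They are all wells that the authors' annotation table marks as frozen: 8 wells of 10 nuclei and 8 wells of 100 nuclei, 16 of the 64 wells in the table. The other 48 wells hold nuclei of formalin-fixed, paraffin-embedded (FFPE) brain, deparaffinised by 3 methods. The labels describe the sample as cortex of C57BL/6J mice aged 8 to 12 weeks and name no genotype or treatment beyond that. They speak of FFPE tissue only, so the freezing of these 16 wells rests on the annotation table, and neither source gives the sex, the number of animals or the animal behind a well. All wells belong to 1 GEO sample, so p-values below measure the spread between wells, which may be technical. The 8 wells of each nuclei number formed 1 sequencing pool, and the same 8 well barcodes recur in both pools, so nuclei number and pool cannot be told apart.

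SCRB-seq tags the poly(A) end of each transcript with a well barcode and counts the tags per gene. A nucleus holds unspliced transcripts and retained noncoding RNA, while finished messenger RNA, ribosomal protein messages and mitochondrial transcripts lie mostly in the cytoplasm. Nuclear RNA of neurons is rich in Malat1 and Meg3, long noncoding RNAs that stay in the nucleus, and in transcripts of very long synaptic genes. Cortex mixes excitatory and inhibitory neurons with astrocytes, oligodendrocytes and their precursors, microglia and cells of the vessel wall, and each type has its own marker transcripts.

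The wells carried the markers of cortical neurons in both groups. Camk2a, a kinase of excitatory synapses, was present in all 16 wells at 779 ± 298 counts per 1000000 mouse counts (CPM; mean ± SD, n = 8) with 10 nuclei and 809 ± 134 CPM with 100. Nrgn, a calmodulin-binding protein of forebrain excitatory neurons, stood at 514 ± 189 and 817 ± 188 CPM. Gabra6 and Cbln3, which define cerebellar granule neurons, had 0 counts in all 16 wells, which allows up to 2.82 CPM (3 counts of 1065514). The microglial receptor gene Csf1r was also at 0 in all 16 wells, although Cx3cr1, another microglial receptor gene, had counts in each of them. Counts of Y-linked genes (Ddx3y, Uty, Eif2s3y) were found in both groups.

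Wells of 10 nuclei were shallower and held fewer genes than wells of 100. Mouse counts per well ran from 17611 to 61826 with 10 nuclei (median 37611.5) and from 58260 to 167144 with 100 (median 79898.5). The ranges overlapped, because the deepest well of 10 nuclei passed 3 of the wells of 100. The means were 36789 ± 14659 and 96400 ± 43358 counts (SD, n = 8 each), so that 10 times the nuclei went with a 2.62-fold mean count. Per nucleus this was 3679 counts against 964. On the log10 scale the difference, 10 minus 100 nuclei, was -0.415 (2-sided exact permutation p = 0.000622, adjusted over 6 measures per well 0.000746).

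Genes with at least 1 count numbered 4524 to 8349 per well of 10 nuclei (mean 6477 ± 1252) and 8672 to 11834 per well of 100 (9954 ± 1308). The groups did not overlap, and the difference of -3477 genes had a 2-sided exact permutation p of 0.000155, the smallest that 12870 splits can give (adjusted 0.000311). At 17000 counts drawn from each well the gap was smaller and still free of overlap: 4439 to 5049 genes against 5351 to 5508. The means were then 4812.5 ± 180 and 5408 ± 51.6, a difference of -595.5 genes (exact p = 0.000155, adjusted 0.000311).

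**Figure D1:**
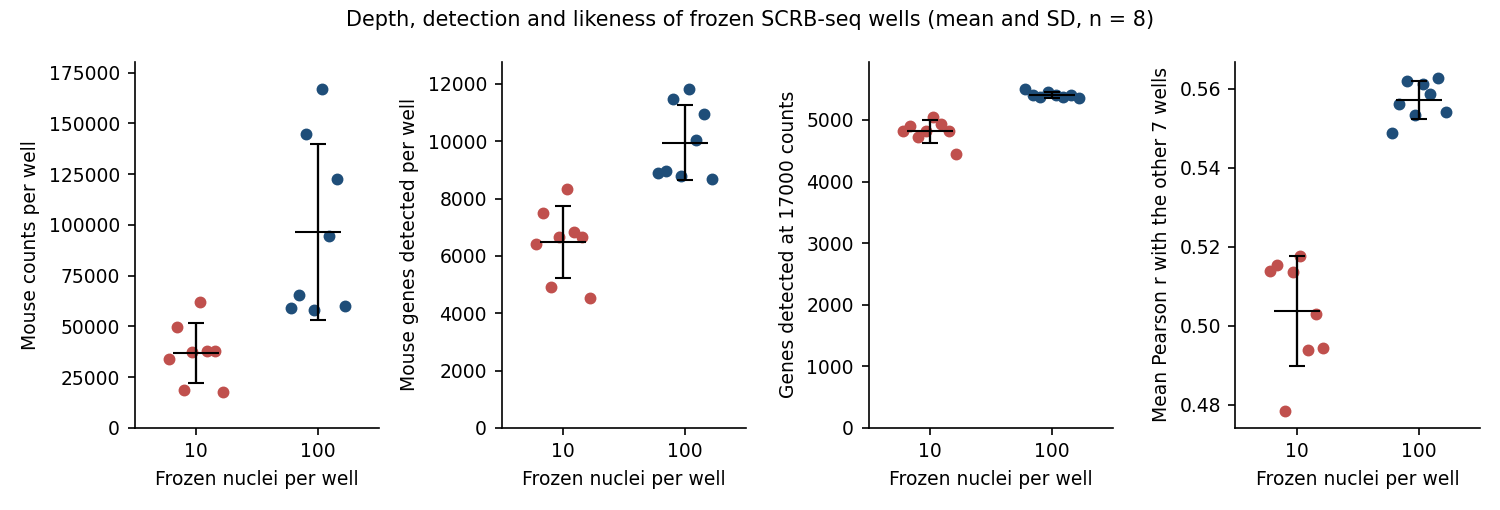
Mouse counts, genes detected, genes detected at 17000 counts and mean Pearson r with the other 7 wells of the same nuclei number, for each frozen SCRB-seq well (points), with mean and SD (n = 8 per nuclei number). The gene axes start at 0 and the axis of r does not; at 17000 counts the wells of 100 nuclei lie within 5351 to 5508 genes, above every well of 10.

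The gene lists of the wells of 10 nuclei also shared less with each other. At 17000 counts, 801 genes were seen in all 8 wells of 10 nuclei and 1138 in all 8 wells of 100, which is 6.83% and 9.39% of the genes seen in any well of that number. Genes seen in 1 well alone made up 29.1% and 25.9%. Over the 8 wells together the gap was smaller: 17000 counts drawn from the pooled 80 nuclei held 5617 genes, against 5734 from the pooled 800 nuclei. The 2 pools were described by 1 draw each, so this is a value with no test.

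Human genes of the combined reference took 1.98% to 3.70% of all counts with 10 nuclei (mean 2.78% ± 0.538) and 1.61% to 2.26% with 100 (1.91% ± 0.243). The ranges overlapped, and the difference of 0.874 percentage points had an exact permutation p of 0.000622 (adjusted 0.000746). As numbers of counts, human genes held 1012 ± 351 per well of 10 nuclei and 1811 ± 685 per well of 100. The 50 most abundant mouse genes of a well took 22.4% ± 1.86 and 23.4% ± 1.28 of its counts, a difference of -0.935 points (exact p = 0.271) that turned to 0.515 points (p = 0.371) when Malat1 was left out.

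Wells of 10 nuclei differed more from each other than wells of 100 did. Mean pairwise Pearson r of log2(CPM + 10) at 17000 counts was 0.504 within wells of 10 nuclei (range over pairs 0.462 to 0.538), 0.557 within wells of 100 (0.537 to 0.571) and 0.517 between the groups (0.477 to 0.548). The mean r of a well with the other 7 of its number ran from 0.478 to 0.518 with 10 nuclei and from 0.549 to 0.563 with 100, without overlap. The difference in mean r was -0.0534 (2-sided exact permutation p = 0.000155, adjusted 0.000311). Well 3 of 10 nuclei was least like the rest, and well 5, the deepest of that number, the most.

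The common dispersion fitted by edgeR, the variance between wells beyond counting error as a share of the squared mean, was 0.243 in wells of 10 nuclei and 0.0442 in wells of 100 at 17000 counts. Over 902 genes this is a 5.49-fold difference, or a coefficient of variation (CV) beyond counting of 0.492 against 0.210. Leaving out any 1 well kept the dispersion between 0.211 and 0.262 with 10 nuclei and between 0.0414 and 0.0469 with 100. At the deposited depth it was 0.243 against 0.0554. No test was run on the dispersions. Counting error here takes each count as independent, and the sources used here do not say whether counts were collapsed by molecular identifiers, so amplification is not separated from the spread between wells.

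Single genes showed the same order. Of 206 genes with a mean of at least 500 CPM, 158 (76.7%) had the larger CV between wells of 10 nuclei at equal depth. Their median CV was 40.7% with 10 nuclei and 30.8% with 100, against the 26.7% that counting alone would give. The mean here is over all 16 wells, so some genes reached it through 1 nuclei number. Of the 174 genes that reached 500 CPM in each, a limit chosen after seeing the data, 129 (74.1%) had the larger CV with 10 nuclei, with medians of 37.9% against 30.1% where counting gives 25.2% and 25.7%.

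The 4 genes with the largest CV in wells of 10 nuclei were Apoe (165%), Bsg (153.5%), Cst3 (117%) and Ptgds (115%), against 54.4% to 65.2% in wells of 100. Each passed 500 CPM through 1 group only, so the CVs stand at unequal means. At 17000 counts the means were 434 CPM with 10 nuclei and 1198.5 CPM with 100 for Apoe, 346 and 926 for Cst3, 382 and 1125 for Ptgds, and 956 and 456 for Bsg. Counting alone would give these 4 a CV of 24.8% to 41.3% with 10 nuclei and 22.2% to 35.9% with 100. Apoe, the lipid carrier secreted by astrocytes and microglia, ran from 20.2 to 2109 CPM with 10 nuclei (median 144), and from 449 to 2033 CPM with 100 (median 1085). Wells 3 and 6 of 10 nuclei held 39 and 34 counts of it and the other 6 wells 1 to 9. Bsg, basigin, a membrane protein of brain endothelium and other cells, was at 3678 CPM in well 3 and 2869 CPM in well 6, against 52.9 to 414 CPM in the other wells of 10 and 191 to 704 CPM with 100. These are the 2 wells in which the endothelial markers are also highest. Cst3, cystatin C, an abundant message of glia, was highest in well 6 of 10 nuclei (1275 CPM) and at 0 in well 7. Ptgds, a prostaglandin synthase of leptomeninges and oligodendrocytes, was at 1036, 926 and 624.6 CPM in wells 6, 7 and 8 and at or under 148 CPM in the other 5. In mean level none of the 4 was called by edgeR (adjusted p from 0.110 for Ptgds to 0.453 for Bsg). Of 27 alternatives, 3 called Apoe, 2 Cst3 and 4 Ptgds, each lower with 10 nuclei. Apoe was called without well 3 of 10 nuclei (log2 fold change -2.30, edgeR adjusted p = 0.0144), and Cst3 (-1.99, 0.0275) and Ptgds (-2.16, 0.0275) without well 6. Genes at the other end were Meg3, with 7.82% against 9.22%, and Malat1, with 12.0% against 6.95%.

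**Figure D2:**
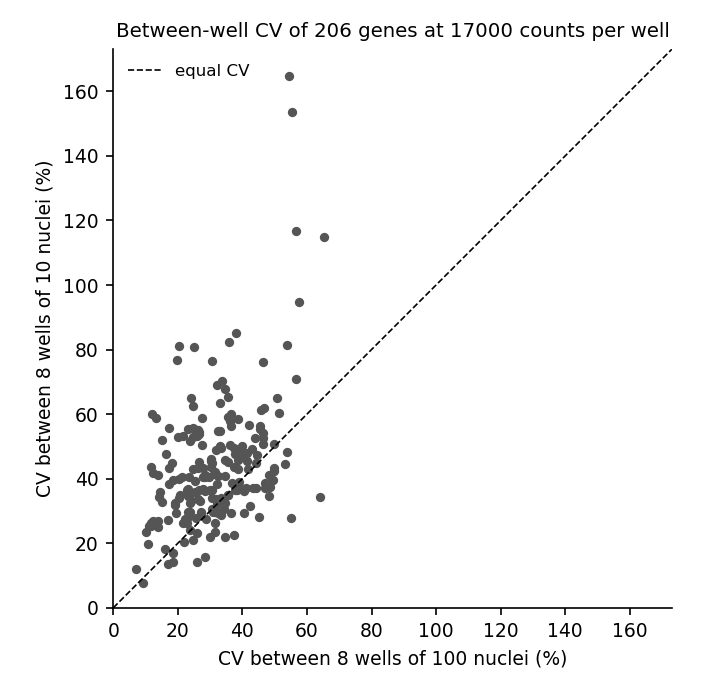
CV between wells at 17000 counts per well for 206 genes with a mean of at least 500 CPM: wells of 100 nuclei on the x axis, wells of 10 nuclei on the y axis, each point 1 gene. Of the 206 points, 158 lie above the dashed line of equal CV.

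Few genes differed in mean level. With Benjamini-Hochberg adjustment over all tested genes, the quasi-likelihood test of edgeR called 6 of 902 tested genes (0.665%) at an adjusted p under 0.05: 3 higher with 10 nuclei (0.333%) and 3 lower (0.333%). At an unadjusted p under 0.05 there were 112. The median log2 fold change, 10 minus 100 nuclei, was 0.05 over all tested genes, the median size of a change was 0.28, and 24 genes were past 2-fold. Data were simulated with 1 dispersion for all genes of a nuclei number, 0.243 for 10 nuclei and 0.0442 for 100. In them the test recovered 18.2% of 1.5-fold, 53.1% of 2-fold and 80.6% of 4-fold changes. The real genes differ in spread, so these shares may not hold for them. The count moved with the settings: DESeq2's Wald test called 21, leaving out the filter on low counts 48 of 16615, and a fit of all 64 wells 1 of 2511. Leaving out single wells gave 2 to 16, with 13, 16 and 12 without wells 3, 6 and 8 of 10 nuclei, 3 without well 2, 4 or 6 of 100, and 2 without well 7 or 8 of 100.

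**Figure D3:**
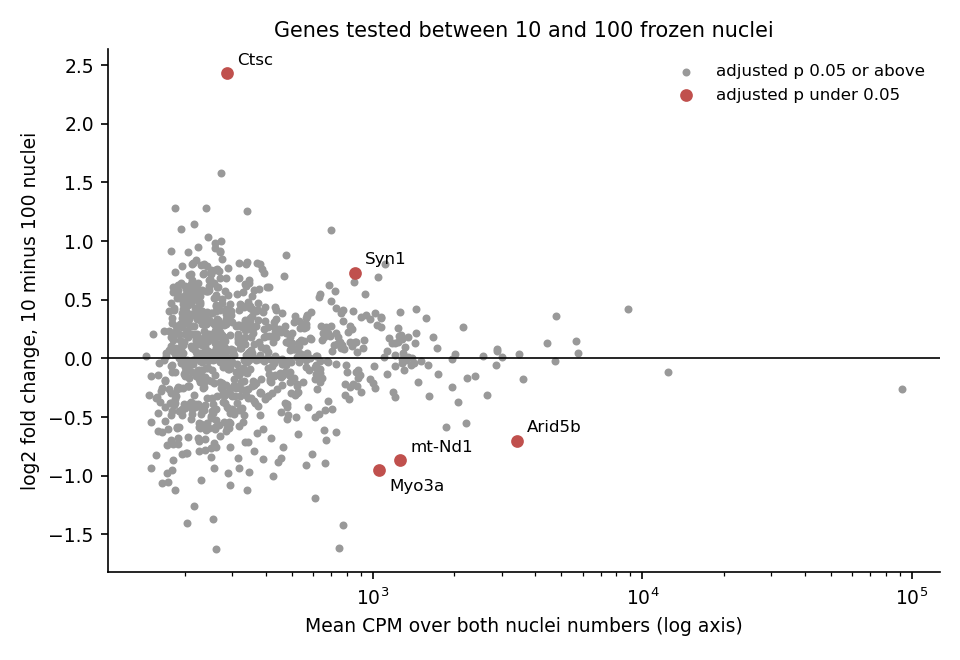
Log2 fold change between 10 and 100 frozen nuclei (y axis, edgeR) against the mean CPM of both groups (x axis, log scale) for the tested genes, of which a few are left out. The 5 called genes shown are red and named; the grey point farthest right is Malat1, at -0.26.

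Syn1 encodes synapsin I, which ties synaptic vesicles to the cytoskeleton. Its level was 757 to 1481 CPM with 10 nuclei (median 1039) and 593 to 774 CPM with 100 (median 640). The highest well of 100 nuclei, well 3, passed the lowest of 10, which also was well 3. The log2 fold change was 0.73 (SE 0.18, edgeR adjusted p = 0.0479), in 8 of 8 wells above the mean of 100 nuclei, and the call held under 11 of 27 alternatives (adjusted p from 0.000605 to 0.777). Leaving out well 2, 4, 5 or 7 of 10 nuclei or any well of 100 ended it (0.0580 to 0.121). On the X chromosome at 20860511 to 20921004, minus strand (GRCm38, GENCODE M21), Syn1 overlaps Araf and Timp1 on the opposite strand. The sources used here do not say whether counting used the strand, and without it the reads of these genes cannot be told apart.

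Ctsc, the lysosomal protease cathepsin C, showed the largest fold change of the called genes. It stood at 79.7 to 1420 CPM with 10 nuclei (median 273) and 16.3 to 206 CPM with 100 (median 66.3), overlapping between the groups. The 2 highest values, 1420 and 1028 CPM, belonged to wells 8 and 3, the shallowest of the 16. The log2 fold change was 2.43 (SE 0.52, edgeR adjusted p = 0.0207), and without those 2 wells it was 1.55 and not called (0.0996). Leaving out well 5, 6, 7 or 8 of 100 nuclei also ended the call (0.0533 to 0.0722), as did the fit of all 64 wells (0.0782; range over 25 alternatives 0.000605 to 0.0996). In numbers of counts, Ctsc had 106 in the 8 wells of 10 nuclei and 59 in the 8 wells of 100. The FFPE wells of the same table had a mean of 37901 CPM and 77911 counts of Ctsc, and the part of these in the frozen wells was not tested. Tspan3, a tetraspanin gene and another of the leading transcripts of the FFPE wells, was at 414 ± 332 CPM with 10 nuclei and 132 ± 88.1 CPM with 100 (log2 fold change 1.58, edgeR adjusted p = 0.104), and DESeq2 called it. Ctsc lies on chromosome 7 at 88278085 to 88310888, plus strand.

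Arid5b, a DNA-binding regulator of transcription, was lower with 10 nuclei. Wells of 10 nuclei held 1839 to 3066 CPM (median 2540) and wells of 100 held 3219 to 5205 CPM (median 4296). The groups did not overlap, as for 3 of the 902 genes (0.333%). The log2 fold change was -0.70 (SE 0.13, edgeR adjusted p = 0.00243), called under 26 of 27 alternatives and not in the fit of all 64 wells (0.523; range over alternatives 7.91e-06 to 0.523). Arid5b lies on chromosome 10 at 68092520 to 68278740, minus strand.

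Myo3a, a motor protein of the actin cytoskeleton with a kinase domain, fell in the same direction. It ran from 356 to 899 CPM with 10 nuclei (median 785) and from 975 to 2054 CPM with 100 (median 1412), and the groups did not overlap. The log2 fold change was -0.95 (SE 0.22, edgeR adjusted p = 0.0286). The call held under 19 of 27 alternatives and ended without well 2 or 5 of 10 nuclei or well 2, 4, 7 or 8 of 100 (0.0556 to 0.0933; range over alternatives 0.00149 to 0.1997). Myo3a lies on chromosome 2 at 22227503 to 22618252, plus strand. The annotation puts 4 pseudogenes within it on the opposite strand (Gm13339, Gm13340, Gm13341 and Gm13342). As for Syn1, without the strand the reads of Myo3a and of these pseudogenes cannot be told apart.

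The mitochondrial gene mt-Nd1, which encodes a subunit of respiratory complex I, ran from 423 to 1460 CPM with 10 nuclei (median 953) and from 1119 to 1988 CPM with 100 (median 1611). The groups overlapped through well 3 of 10 nuclei, at 1460 CPM, and well 1 of 10 nuclei, at 1154 CPM. The log2 fold change was -0.87 (SE 0.21, edgeR adjusted p = 0.0479), called under 12 of 27 alternatives (range 0.00157 to 0.157). Leaving out well 2, 4, 5 or 7 of 10 nuclei, or any well of 100 other than well 5, ended the call (0.0562 to 0.0933), and so did scaling by library size only (0.0518) or by DESeq2's size factors (0.0561).

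**Figure D4:**
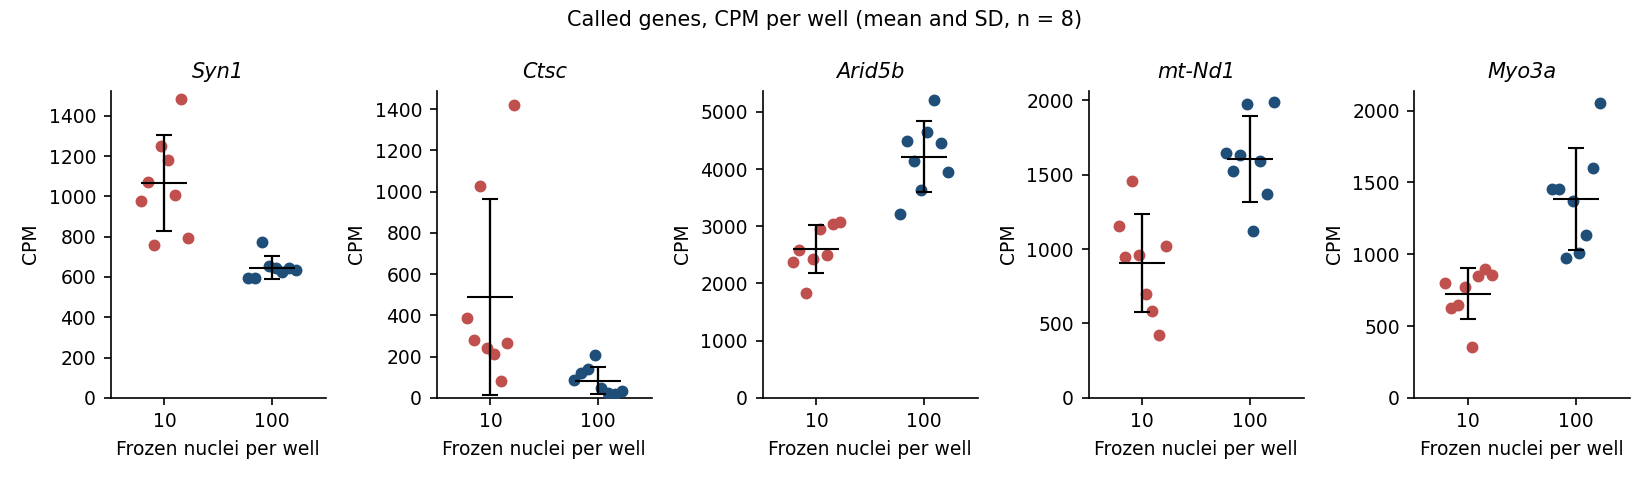
CPM per well of 5 called genes in frozen wells of 10 and 100 nuclei, with mean and SD (n = 8 each). Arid5b and Myo3a are without overlap between the groups, and the 2 highest Ctsc points, at 1420 and 1028 CPM, are wells 8 and 3 of 10 nuclei.

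Genes next to the threshold included Malat1, the most abundant transcript. It took 6.70% to 10.0% of mouse counts with 10 nuclei (mean 8.37% ± 0.994) and 8.50% to 11.4% with 100 (10.0% ± 0.830). Its log2 fold change of -0.26 (SE 0.07) missed the threshold (edgeR adjusted p = 0.05001) and was past it under 10 of 27 alternatives, among them leaving out well 3, 6 or 8 of 10 nuclei or well 1 of 100 (0.00436 to 0.0472; range over alternatives 4.69e-11 to 0.273). The chloride exporter gene Slc12a5 stood at 111 ± 72.7 against 297 ± 64.8 CPM (log2 fold change -1.40, edgeR adjusted p = 0.05001). The vesicle membrane gene Scamp1 stood at 342 ± 152 against 136 ± 44.7 CPM (1.28, 0.05001), and the organic anion transporter gene Slco1a6 at 477 ± 299 against 205 ± 80.1 CPM (1.26, 0.0630). None of these 3 passed in the main edgeR fit, and DESeq2's Wald test called all 3 (adjusted p = 0.00748 for Slc12a5 and Scamp1 and 0.0160 for Slco1a6). With DESeq2 counted, Slc12a5 was called under 6 of 25 alternatives, Scamp1 under 3 of 25 and Slco1a6 under 4 of 26.

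Lists of transcripts that lie mostly outside the nucleus had lower means with 10 nuclei, and 1 of their members passed the test. Of the 11 mitochondrially encoded genes 4 were tested; all 4 had a lower mean with 10 nuclei and 1, mt-Nd1, was called (0.665% of all tested genes were), with a median log2 fold change of -0.89 against 0.05 over all tested genes. Summed, the 11 took 0.142% to 0.341% of mouse counts with 10 nuclei (mean 0.203%) and 0.250% to 0.463% with 100 (0.349%). The highest value of the 10-nuclei wells, 0.341%, was well 3. mt-Co1, a subunit of complex IV, was at 398 ± 181 against 726 ± 244 CPM (edgeR adjusted p = 0.110), and mt-Cytb, of complex III, at 356 ± 352 against 570 ± 163 (0.410).

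Of 16 abundant cytoplasmic messages 6 were tested. EdgeR called 0, DESeq2 and limma 0 each, and 4 had an unadjusted p under 0.05, as did 112 of the 902 genes (12.4%). All 6 had a lower mean with 10 nuclei, with a median log2 fold change of -0.69. Their summed level was 2461 to 6082 CPM with 10 nuclei and 3398 to 8356 CPM with 100. Ubb, which encodes polyubiquitin, stood at 530 ± 377 and 728 ± 272 CPM (log2 fold change -0.47, edgeR adjusted p = 0.580). Of 99 cytosolic ribosomal protein genes and copies 1 passed the filter and was not called (log2 fold change -0.98), and the summed share was 0.457% ± 0.118 with 10 nuclei and 0.528% ± 0.117 with 100. In bulk wells, fewer cells of a type and less RNA per cell cannot be told apart.

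Nuclear long noncoding RNAs summed to 99702 ± 9714 CPM with 10 nuclei and 117025 ± 8214 CPM with 100, mostly Malat1. Meg3 was at 11911 ± 903 and 12877 ± 1503 CPM (log2 fold change -0.11, edgeR adjusted p = 0.602). The list named repeat- or rRNA-like, whose loci take reads of ribosomal RNA or satellite repeats, had 3 of 16 members tested, all with higher means with 10 nuclei (median 0.23). EdgeR, DESeq2 and limma called 0 of them, and 1 had an unadjusted p under 0.05, beside 0.665% and 12.4% of all tested genes. Its main member Gm26917 ran from 5300 to 12946 CPM with 10 nuclei and from 5779 to 8632 CPM with 100 (log2 fold change 0.42, edgeR adjusted p = 0.110). Reads of such loci can be shared with other copies, so their levels are uncertain.

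Of the genes of the synapse and the long neuronal genes, 1 was called in mean level. Of 16 presynaptic release genes 13 were tested and 1, Syn1, was called (higher), beside 0.665% of all genes. At an unadjusted p under 0.05 there were 5, against 12.4% of all tested genes. Of the 13, 9 had a lower mean with 10 nuclei, with a median log2 fold change of -0.21. Nrxn3, a presynaptic adhesion molecule, was at 2381 ± 499 CPM with 10 nuclei and 2936 ± 369 CPM with 100 (edgeR adjusted p = 0.329). Of 17 postsynaptic receptor and scaffold genes 14 were tested, with 0 called by edgeR, DESeq2 or limma and 0 at an unadjusted p under 0.05 (median -0.03). Dlgap1 and Dlg2, scaffold proteins of the postsynaptic density, differed by 0.01 and -0.06 (log2, SE 0.13 each). All 20 long neuronal genes were tested, with 0 called by any of the 3 tools and 2 at an unadjusted p under 0.05 (median -0.10). Ptprd, a synaptic adhesion phosphatase, was at 5973 ± 1669 and 5392 ± 1098 CPM (log2 fold change 0.15, edgeR adjusted p = 0.704). No list's median changed sign when scaled by library size or by DESeq2's size factors.

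The marker lists of cell types spread more between wells of 10 nuclei, while none of their tested genes was called. Of 8 lists of cortical cell types, 7 had the larger CV of their summed level in wells of 10 nuclei at 17000 counts, as had all 14 of the other lists measured. The median CV over the 8 was 64.02% (23.8% to 136%) with 10 nuclei and 33.3% (18.1% to 117%) with 100. Microglia were the exception, at 79.8% against 117%, and at the deposited depth their CV was 64.4% against 40.8%. Of the 10 tested genes of these lists, edgeR, DESeq2 and limma called 0, and 2 had an unadjusted p under 0.05, beside 0.665% called and 12.4% unadjusted over all tested genes.

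Excitatory neuron markers were the steadiest of the 8 cell type lists, at 1647 to 2777 CPM with 10 nuclei and 2253 to 2952 CPM with 100. They were also the most abundant of the 8, and the part of counting error in the CVs of the lists was not measured. Inhibitory neuron markers ran from 266 to 1036 CPM with 10 nuclei (median 391) and from 445 to 1044 CPM with 100 (median 698). The highest of the 10-nuclei wells, well 6, held all 11 counts of Npy, a neuropeptide of inhibitory neurons, in that group (292 CPM), while Npy had counts in all 8 wells of 100. Well 6 was also the highest of them in oligodendrocyte (850 CPM) and microglia markers (531 CPM), abundant cytoplasmic messages (6082 CPM) and ribosomal protein genes (6162 CPM), and the part of these was not tested. Erbb4, a neuregulin receptor of inhibitory neurons, was also highest there, at 398 CPM against 56.8 to 344 in the other wells of 10. Adarb2, of the same list, was highest in well 6 as well (266 CPM). Other members did not follow: Gad1 had 1 count in well 6, and Gad2, Pvalb, Sst and Vip had 0. Over all wells of 10 nuclei Gad1 had 1 count and Gad2 had 2. Sst and Slc32a1, also on the list, had 0 counts in wells of 10 nuclei, which allows up to 10.2 CPM over that group.

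Endothelial markers were highest in wells 3 and 6 of 10 nuclei. Their summed level was 2163 CPM in well 3 and 1886 CPM in well 6, against 341 to 744 CPM in the other 6 wells of 10 and 283 to 491 CPM in wells of 100. Wells 3 and 6 were also the 2 highest wells of 10 nuclei in abundant cytoplasmic messages (5192 and 6082 CPM), cytosolic ribosomal protein genes (6057 and 6162 CPM) and mitochondrially encoded genes (3407 and 2284 CPM). The part of these in the marker levels was not tested. Flt1, a VEGF receptor, stood at 811 CPM (15 counts) in well 3, and Slco1a4, a transporter of the blood-brain barrier, at 372 CPM (14 counts) in well 6. Tek, the angiopoietin receptor, did not follow these wells: it was 114 to 534 CPM with 10 nuclei and 103 to 373 CPM with 100 (log2 fold change 0.98, edgeR adjusted p = 0.226). The mural and leptomeningeal markers gave 487 CPM in well 3 and 0 CPM in wells 1, 2 and 4 of 10 nuclei. Rgs5, a pericyte gene, made up most of this, with 8 counts in well 3 and 6 in well 6. No well of 100 nuclei held more than 2 counts of Rgs5.

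Oligodendrocyte markers ran from 162 to 850 CPM with 10 nuclei and from 311 to 651 CPM with 100. Mbp, the myelin basic protein gene, was at 64.7 to 425 CPM with 10 nuclei and 132 to 221 CPM with 100 (log2 fold change 0.33, edgeR adjusted p = 0.714). Precursor markers ran from 159 to 908 CPM with 10 nuclei, against 237 to 718 CPM with 100. Astrocyte markers ran from 562 to 1249 CPM and from 703 to 1576 CPM. Slc1a2, the main glutamate transporter of astrocytes, was at 301 ± 141 and 331 ± 110 CPM (log2 fold change -0.11, edgeR adjusted p = 0.921).

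Markers of regions outside cortex were measured too. Striatal spiny neuron markers ran from 622 to 2669 CPM with 10 nuclei and from 1150 to 1685 CPM with 100. Most of this was Pde10a, a phosphodiesterase gene, while the dopamine receptor genes Drd1 and Drd2 had a mean of at most 29.3 CPM in either group. The cerebellar granule list, without its defining members Gabra6 and Cbln3, was at 56.8 to 545 CPM and 351 to 555 CPM, most of it Cadps2.

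**Figure D5:**
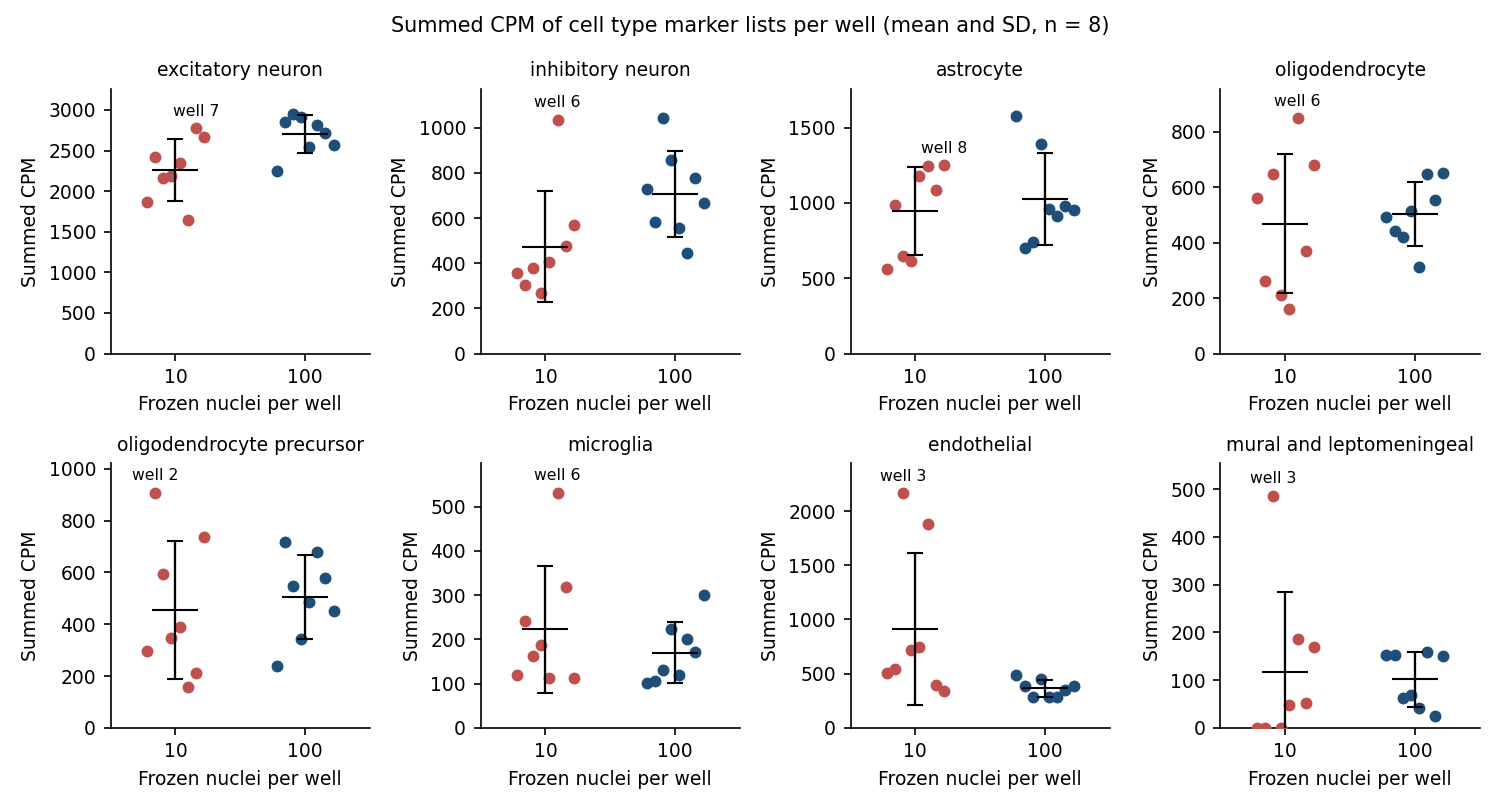
Summed CPM of the markers of 8 cell types in each frozen well of 10 and 100 nuclei (points), with mean and SD (n = 8 each); the highest well of 10 nuclei is named. Endothelial markers reach 2163 CPM in well 3 and 1886 CPM in well 6 of 10 nuclei, against at most 491 CPM with 100 nuclei.

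Some genes came from 1 well of 10 nuclei almost alone. Counting genes with at least 10 counts in a well and at least 5 times the CPM of each other well of its number, wells of 10 nuclei held 3 to 22 such genes (89 in all) and wells of 100 held 1 to 7 (24 in all). At 17000 counts per well the totals were 31 and 0. These genes took 0.101% to 1.73% of the counts of a well of 10 nuclei and 0.0132% to 0.0893% of a well of 100. Of the 89, well 3 held 22, well 6 held 16 and well 8 held 13. Wells 3 and 8 were the shallowest, while well 6, with 37650 counts, lay near the median of its number.

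Epas1, a hypoxia-inducible transcription factor abundant in endothelium, had 98.2% of its summed CPM over the wells of 10 nuclei in well 3, at 1406 CPM or 26 counts. With 100 nuclei it ran from 0 to 68.7 CPM. Cald1, an actin-binding protein of smooth muscle and vessel cells, reached 1514 CPM in well 3, and Gstm1, a glutathione transferase, 1298 CPM. The heat shock list stood at 3191 CPM in the same well, most of it Hsp90aa1 at 1839 CPM. Chmp2a, a component of the ESCRT membrane-cutting complex, was at 811 CPM in well 3.

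Well 8 of 10 nuclei held 795 CPM of the kinase gene Hipk4 (87.5% of the group's summed CPM), 852 CPM of Ppp1r9b, the dendritic spine protein spinophilin, and 795 CPM of Foxp2, a transcription factor of deep-layer cortical neurons. With 100 nuclei these 3 genes stayed at or under 183 CPM. Well 2 held 424 CPM of Arc, an activity-induced synaptic gene, which is 21 of the 29 counts in the group. In the wells of 100 nuclei Arc ran from 45.8 to 184 CPM. The immediate early gene list as a whole ran from 0 to 928 CPM with 10 nuclei and from 249 to 581 CPM with 100.

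The FFPE wells of the same table, with the same nuclei numbers, allow a test of whether the step from 10 to 100 nuclei differed. The FFPE wells also held 902 counts of Gabra6 (mean 295 CPM) and 910 of Cbln1 (mean 258 CPM), genes of the cerebellar granule list. The frozen wells held 0 and 1. Frozen and FFPE wells may thus differ in the cells they hold, and the part of this in the results below was not tested. At the deposited depth the difference in genes per well, 10 minus 100, was -3477 in frozen wells, -6169 with mineral oil, -2460.5 with heated xylene and -3485 with room-temperature xylene. Frozen minus FFPE did not pass for any method (permutation p with 100000 resamples, adjusted over 3: 0.186, 0.337 and 0.993). The labels frozen and FFPE were permuted within each nuclei number, so a difference in level between them widens the permuted values. At 10 nuclei the mean was 6477 genes in frozen wells and 2091 with mineral oil. These p-values therefore do not show that the steps are equal. At 7500 counts per well the frozen difference was -274 genes, against -1683, -534 and -1025.5 in the same order. Its distance from mineral oil (1408.5 genes, adjusted permutation p = 0.000855) and from room-temperature xylene (751 genes, 0.00012) then passed, and that from heated xylene (260 genes, 0.0556) did not.

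Per gene, the edgeR interaction test over all 64 wells called 417 of 2511 genes (16.6%): 366 with a higher and 51 with a lower 10 minus 100 difference in frozen than in FFPE wells. The median interaction over all tested genes was 0.53, and the split moved with the scaling and with the FFPE wells compared. With DESeq2's size factors 729 were called (710 higher, 19 lower), and against the mean of both xylene methods 147 (74 higher, 73 lower), with a median of -0.03. Syn1, called in frozen wells, was among the 417. In that fit of all 64 wells its log2 difference, 10 minus 100, was 0.52 in frozen wells, where it was not called (edgeR adjusted p = 0.777), and -1.44 in FFPE wells (interaction 1.95, SE 0.38, edgeR adjusted p = 0.000499). The interaction was not called for Ctsc (0.24, adjusted p = 0.820), Arid5b (0.16, 0.857), Myo3a (-0.50, 0.420) or mt-Nd1 (-0.76, 0.128).

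The bulk SMART-Seq2 table, a full-length chemistry, holds 1 frozen well each of 10, 50 and 100 nuclei, so its values have no replicate check. They held 891133, 270363 and 466661 mouse counts and 11366, 11626 and 12905 genes, in that order of nuclei. Arid5b stood at 164, 185 and 199 CPM and mt-Nd1 at 28.1, 59.2 and 60.0 CPM, with the lowest value at 10 nuclei as in SCRB-seq. Syn1 was at 192, 129 and 96.4 CPM, highest at 10 nuclei. Malat1 was at 11641, 21253 and 25955 CPM and Meg3 at 7621, 11270 and 12326 CPM, both lowest at 10 nuclei. Ctsc had 0 counts in all 3 wells. Myo3a had 3, 4 and 5 counts (3.37, 14.8 and 10.7 CPM).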

How the data were processed

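The data are the 16 frozen wells of the bulk SCRB-seq table of mouse cortex, with the 48 FFPE wells and 3 frozen SMART-Seq2 wells beside them. The deposited values are raw whole-number counts of each gene in each well. By its header, the authors' SCRB-seq table covers 19006 mouse genes and 10653 human genes. The submitters' processing notes name the builds hg19 and mm10. Aligner, counting software and any collapsing by molecular identifiers: not given in the sources used here. Human genes were left out of the fits.

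Groups came from the authors' annotation of treatment and nuclei number. Genes were tested by quasi-likelihood in edgeR 4.0.16 (R 4.3.3), after filterByExpr and TMM scaling and with Benjamini-Hochberg adjustment over all tested genes, on the 16 wells and without covariates. DESeq2 1.42.0 and limma 3.58.1 served as alternatives. Values per well were compared with 2-sided exact permutation tests, adjusted over 6 measures. Thinning drew counts without replacement, to 17000 per well or 7500 for all 64 wells. Floors are 3 counts and cover counting error only; 1 count is 16.2 to 56.8 CPM in a well of 10 nuclei and 5.98 to 17.2 CPM in a well of 100. The tests were tested on simulated data with 1 dispersion per nuclei number for all genes. There 200 of 858 to 909 tested genes were changed, 0 to 1 genes were called when none was, and 6.13% of calls were false. Alternatives covered scaling, filter, test, depth, the wells in the fit and leaving out each well.

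Genes were named by rule: the largest called rises and falls, or, where fewer than 5 passed in a direction, the 5 of smallest p; the 2 most abundant members of each list; the 5 most abundant genes; and the 5 genes of at least 100 CPM most concentrated in 1 well of 10 nuclei. Some results under these rules are left out here. Other genes named were chosen after their values were seen. The members and lists were chosen with earlier results of these data known. Positions are from GENCODE M21 on GRCm38. Python 3.11.15, numpy 2.4.6, pandas 2.3.3, scipy 1.17.1 and matplotlib 3.10.9 were used.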

Additional observations from a re-analysis of the deposited data

Results flagged for a closer look

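Of 156 groups of 8 wells checked, 16 held a highest well whose gap to the next was past Dixon's 95% critical value. Chance gives about 1 in 20 for independent values of normal spread. The groups here are not independent, since lists were checked beside their members and the mitochondrial share beside its sum. Some also rest on few counts, so the number past the limit cannot be set against that rate. Among wells of 10 nuclei, well 3 stood apart in the share of mitochondrially encoded counts (0.341%, next 0.228%), which is 3407 CPM as a sum. It also stood apart in the mural and leptomeningeal list (487 CPM, next 186) and the heat shock list (3191 CPM, next 1116). By gene, well 3 stood apart in Flt1 (811 CPM, next 292), Rgs5 (433, next 159) and Hsp90aa1 (1839, next 566). Genes picked for being concentrated in 1 well were not checked.

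Well 8 of 10 nuclei stood apart in Ebf1 (170 CPM or 3 counts, next 54.1 or 1 count), a transcription factor gene, and Gm26848 (10845, next 6630), an abundant noncoding gene. Well 2 stood apart in Arc (424 CPM, next 79.3) and Cspg4 (60.5, next 0), a precursor marker with 3 counts. Well 6 stood apart in the inhibitory neuron list (1036 CPM, next 567.8), and was also the highest of its number in oligodendrocyte and microglia markers and in abundant cytoplasmic messages (6082 CPM), whose part was not tested. Wells 3 and 8 are the 2 shallowest of the 16, and the part of depth in these values was not tested.

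Among wells of 100 nuclei, well 3 stood apart in Syn1 (774 CPM, next 652) and Adarb2 (311, next 167), an inhibitory neuron marker. Well 2 stood apart in Slco1a6 (382 CPM, next 227), and well 8 in Cspg4 (83.5, next 15.3).

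The step from 10 to 100 nuclei differed between frozen and FFPE wells in several measures. At 7500 counts per well the difference in genes was 1408.5 above that of mineral oil (adjusted permutation p = 0.000855) and 751 above that of room-temperature xylene (0.00012). By gene, edgeR's interaction test called 417 genes. Among them were Syn1 (1.95 on the log2 scale, frozen minus FFPE, edgeR adjusted p = 0.000499) and Malat1 (0.61, 0.0202). The value of Malat1 is close to the median interaction over all tested genes given above. Of the other genes described in the text, it called Mbp (2.74, 0.00691), Gm26917 (1.39, 0.0402) and Gm26848 (0.91, 0.0486) with a higher difference in frozen wells, and Apoe (-2.16, 0.00623) and Dlgap1 (-1.04, 0.00748) with a lower one.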

How the results depend on the processing

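Mouse counts, genes per well, the human share and the likeness between wells kept their direction and stayed past 0.05 under every alternative run. Leaving out each well gave log10 differences of -0.452 to -0.374, gene differences of -3744 to -3198, human shares of 0.743 to 0.989 points and differences in r of -0.0581 to -0.0450. The share of the 50 most abundant genes, never past the threshold, ran from -1.30 to -0.383 points and turned to 0.515 without Malat1. The count of 6 called genes became 48 with no filter on low counts, 21 with DESeq2's Wald test, 1 with all 64 wells in the fit, 10 without the 2 shallowest wells of 10 nuclei (chosen after seeing the data) and 2 to 16 on leaving out each well. Other scaling, a filter of at least 10 counts in at least 8 wells and thinning gave 4 to 7, and limma with a weight per nuclei number 8. The 417 genes of the frozen against FFPE test became 147 with the 2 xylene methods, 729 with DESeq2's size factors and 1205 with no filter. The distance in genes per well at 7500 counts became 1408.5 for mineral oil and 751 for room-temperature xylene, both then past the threshold, and 260 for heated xylene, against -1016.5 at the deposited depth. The causes were not tested.

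Well barcodes, shared by both pools, do not pair the wells. Over 8 same-barcode pairs the correlation of deviations ran from -0.0155 to 0.0583, 0 were over 0.1, and 1 well was closest to its own barcode. With the barcode as a replicate block 7 genes were called, 5 of them among the 6; Syn1 was not (adjusted p = 0.144), and Malat1 (0.0187) and Ptgds (0.0149) were. Depth limits the wells of 10 nuclei, where 38.1% of the detected genes rest on 1 count, against 25.5% with 100.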
